A study of Mus musculus with 9 samples.

Results

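The genes described here are the core of the G1 restriction point machinery of the cell cycle: the D-type cyclins Ccnd1, Ccnd2 and Ccnd3, their kinases Cdk4 and Cdk6, the inhibitors Cdkn1a, Cdkn1b and Cdkn2c, and the pocket proteins Rb1 and Rbl1. The 10 members were chosen by symbol for their place in this pathway, out of 49585 genes in the count table, and all 10 were among the 11619 genes with enough counts to be tested. They were measured by bulk RNA sequencing in cells sorted from mouse haematopoietic stem cell (HSC) cultures, with 3 libraries for each of 3 populations. The sort gates were CD201+CD150+CD48-KSL (here CD201+CD48-), CD201+CD150+CD48+KSL (here CD201+CD48+) and CD201-KSL (here CD201-), the last being the population the others are set against. KSL cells carry Kit and Sca-1 and lack lineage markers, CD201 is the product of Procr, and CD150 and CD48 are the products of Slamf1 and Cd48. All libraries came from wild type C57BL/6 bone marrow: CD34-CD150+KSL cells were grown in F12 medium with 0.1% polyvinyl alcohol (PVA), 100 ng/ml thrombopoietin (rmTPO) and 10 ng/ml stem cell factor (rmSCF). The culture lasted 10 days per the design text and a week per the growth protocol. For the CD201- libraries the sample titles also name CD150+CD48+, which their treatment labels omit, so what else defined that gate is not certain. No library used here came from uncultured marrow, and no label ties replicates to separate cultures or animals, so p-values measure the spread between these libraries, which may be technical.

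A D-type cyclin bound to Cdk4 or Cdk6 phosphorylates the pocket proteins, which then release E2F transcription factors, and E2F factors switch on cyclin E and the genes of DNA replication. Inhibitors of the Ink4 family, such as Cdkn2c (p18), bind Cdk4 and Cdk6 directly, and inhibitors of the Cip/Kip family, such as Cdkn1a (p21) and Cdkn1b (p27), bind whole cyclin and kinase complexes. In the blood system this step decides whether a resting stem cell enters the cycle, and in human long-term HSCs a low level of CDK6 is known to go with a delayed exit from quiescence.

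Procr and Cd48 transcripts followed the sort gates for CD201 and CD48. Levels are given as CPM, counts scaled to a common library total with TMM factors applied to the library sizes. Procr had a mean of 63.2 CPM in the CD201+CD48- population, 26.5 CPM in CD201+CD48+ and 3.56 CPM in CD201-, and Cd48 had 5.86, 83.3 and 124.7 CPM in the same order. Kit, of the KSL gate, had 509.2, 467.7 and 350.7 CPM, and Ptprc, which marks blood cells, had 463.2, 473.4 and 452.8 CPM. Libraries held 3810123 to 7072885 counts, which limits the precision of the lowly counted Cdkn2c and Ccnd1. The third CD201- library stood apart from the other CD201- libraries: 584 genes lay more than 2-fold from the mean of its fellow replicates, against 233 for each of the other CD201- libraries and 53 to 97 for each library of the CD201+ populations. In that library Ly6a lay at -1.16 and Procr at -0.69 on the log2 CPM scale from the mean of the other CD201- libraries. Results that rest on that library are given with and without it. In bulk samples, fewer cells of a type and less RNA per cell cannot be told apart, so every value below is a mean over whatever cells a sort held.

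Promoters are shown for the members whose window holds a motif relevant to this pathway and whose transcripts are compared most below. RefSeq promoter windows (build GRCm38.p6, the mm10 assembly, from 250 bases before to 50 after a transcription start) were found for 7 of the 10 members, 10 windows in all. They were searched on both strands for the E2F letters TTTCCCGC, TTTCGCGC, TTTGCCGC and TTTGGCGC, for the E-box CACGTG to which Myc and Max bind, and for the cell cycle letters TTTGAA. No matches overlapped in the members' windows. Ccnd1, Ccnd2 and Rb1 had no window and were not searched. Capitals mark the E2F letters in Rbl1 and the E-box in Cdk4 and Cdk6.
Rbl1, chr2:157204485-157204784, minus strand: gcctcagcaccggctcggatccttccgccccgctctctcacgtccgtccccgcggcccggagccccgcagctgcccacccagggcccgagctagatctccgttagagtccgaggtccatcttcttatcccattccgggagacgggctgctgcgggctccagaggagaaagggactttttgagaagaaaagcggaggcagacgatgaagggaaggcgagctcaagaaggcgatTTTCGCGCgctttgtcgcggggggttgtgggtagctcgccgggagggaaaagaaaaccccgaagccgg
Cdk4, chr10:127063285-127063584, plus strand: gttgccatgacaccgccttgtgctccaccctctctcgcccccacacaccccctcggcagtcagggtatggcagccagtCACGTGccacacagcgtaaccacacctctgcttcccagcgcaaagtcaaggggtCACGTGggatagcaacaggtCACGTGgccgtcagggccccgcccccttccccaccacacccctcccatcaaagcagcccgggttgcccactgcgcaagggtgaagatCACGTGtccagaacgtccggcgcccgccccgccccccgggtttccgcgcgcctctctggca
Cdk6, chr5:3343643-3343942, plus strand: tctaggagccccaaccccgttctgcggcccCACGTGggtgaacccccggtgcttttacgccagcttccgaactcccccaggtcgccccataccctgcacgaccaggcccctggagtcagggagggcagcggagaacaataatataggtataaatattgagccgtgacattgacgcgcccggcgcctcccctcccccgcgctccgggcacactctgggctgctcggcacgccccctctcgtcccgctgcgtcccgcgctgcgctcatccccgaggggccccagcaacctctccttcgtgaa
The Rbl1 window held 1 E2F match, which began 18 bases before the start; 2.26% of all 32851 windows held one. The Cdk4 window held 4 E-boxes, beginning 172, 118, 98 and 11 bases before the start, and 8 windows in all held at least as many. The Cdk6 window held 1 E-box, 220 bases before the start, and 1 of the Cdkn2c windows held 1 as well, after the start; 7.15% of all windows held an E-box. TTTGAA was in none of the members' windows and in 17.9% of all windows. A match is a description of the letters in the window and not of binding. Gene positions below are from the same RefSeq annotation. Genes of other products overlap the loci of Ccnd1 (LTO1), Ccnd3 (Bysl), Cdk4 (Tspan31) and Rb1 (Lpar6), so that reads could be shared where strand was not used, and none overlaps Cdkn1a, Cdkn1b or Cdkn2c.

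Cdk6 and Ccnd1 had the widest range of group means among the members and stood in opposite order across the populations. In CD201+CD48- against CD201- cells, Ccnd1 was called higher and Ccnd2, Cdk6, Cdkn2c and Rbl1 were called lower at an adjusted p under 0.05 (edgeR quasi-likelihood test), so 5 of 10 members were called; 48.1% of all tested genes were called in this comparison, which makes the members' count close to the background. In CD201+CD48+ against CD201- cells, Ccnd2, Cdk6 and Cdkn1a were called lower and no member was called higher, 3 of 10 against 29.1% of all genes. In CD201+CD48- against CD201+CD48+ cells, Ccnd1 and Cdkn1a were called higher and Cdk6 and Rbl1 lower, 4 of 10 against 15.4% of all genes. The share of all genes called in that last comparison moved with the libraries entered: 3534 genes were called without the third CD201- library, against 1785 with all libraries, and 1023 to 1176 when any CD201+CD48- library or the second or the third CD201+CD48+ library was left out. CD201- libraries enter that comparison only through the joint fit. The members' median log2 fold change was -0.20, -0.18 and 0.04 in the 3 comparisons, beside -0.01 to 0.00 over all tested genes.

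The replicates of the CD201+ populations did not overlap for 9 of 10 members, all but Cdkn1b, where 40.7% of all tested genes had no overlap. The same held for 5 members in CD201+CD48- against CD201- cells, beside 55.2% of all genes, and for 4 in CD201+CD48+ against CD201- cells, beside 41.7%. The first and second comparisons share the CD201- libraries and the first and the third share the CD201+CD48- libraries, so their results are not independent. Scaling by library size alone in place of TMM factors shifted the median of all genes by 0.17 in the first comparison and 0.13 in the second on the log2 scale. With it the calls were split 3974 higher and 1685 lower in place of 2807 and 2778 in the first, 2701 and 851 in place of 1723 and 1661 in the second.

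**Figure D1:**
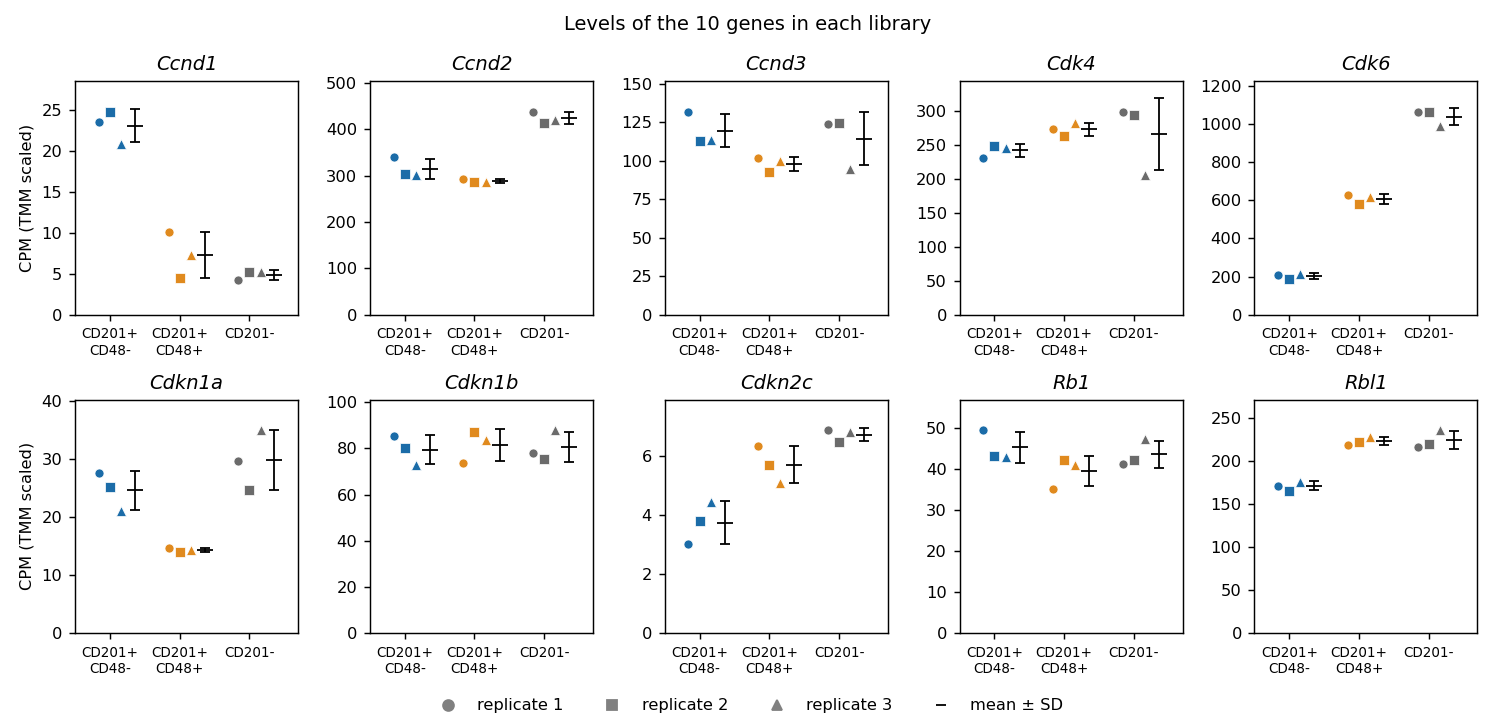
Level of each member in CPM (vertical axis, linear, from 0) in the 9 libraries, with the populations ordered CD201+CD48-, CD201+CD48+ and CD201- along the horizontal axis; coloured marks are libraries, with the shape giving the replicate, and black bars give the mean ± SD (n = 3). Cdk6 steps up across the populations (means 203.2, 607.6 and 1037 CPM) and Ccnd1 steps down (23.0, 7.30 and 4.88 CPM).

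Ccnd1 (chromosome 7, 144929931 to 144939831) encodes cyclin D1, whose transcript is induced by growth factor signalling in many cell types. Ccnd1 was measured at 23.48, 24.76 and 20.81 CPM in CD201+CD48- cells, at 10.08, 4.54 and 7.29 CPM in CD201+CD48+ cells, and at 4.21, 5.16 and 5.26 CPM in CD201- cells. All CD201+CD48- libraries lay above all others, while the CD201+CD48+ and CD201- libraries overlapped. Ccnd1 was 4.69-fold higher in CD201+CD48- cells than in CD201- cells (log2 fold change 2.23 ± 0.23 SE, adjusted p 1.64e-06), and 377 of the 11619 tested genes had a higher log2 fold change. Against CD201+CD48+ cells it was 3.12-fold higher (log2 1.64 ± 0.20 SE, adjusted p 5.43e-05). In CD201+CD48+ against CD201- cells its difference did not pass the test (log2 0.59, 95% interval 0.03 to 1.16, adjusted p 0.108). That difference rested on few counts, 24 to 59 a library in CD201+CD48+ cells and 19 to 24 in CD201- cells. It ranged from 0.31 without the first CD201+CD48+ library to 0.82 without the second, and passed in the second case alone when single libraries were left out (adjusted p 0.0227).

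Ccnd2 (chromosome 6, 127125162 to 127152188) encodes cyclin D2, the most abundant D cyclin transcript per length in all 3 populations. Ccnd2 was measured at 338.97, 303.19 and 300.45 CPM in CD201+CD48- cells, at 292.50, 286.88 and 285.51 CPM in CD201+CD48+ cells, and at 438.01, 414.19 and 420.56 CPM in CD201- cells. Every CD201- library lay above every CD201+ library. Ccnd2 was lower in CD201+CD48- cells than in CD201- cells (log2 -0.43 ± 0.07 SE, adjusted p 2.09e-04) and in CD201+CD48+ cells than in CD201- cells (log2 -0.56 ± 0.07 SE, adjusted p 5.71e-05). The CD201+ populations did not differ beyond the test (log2 0.13, 95% interval -0.03 to 0.28), although their replicates did not overlap.

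Ccnd3 (chromosome 17, 47505051 to 47599689) encodes cyclin D3, which is needed for the expansion of early T and B cells in mice. Ccnd3 was measured at 131.88, 112.94 and 113.36 CPM in CD201+CD48- cells, at 101.49, 92.41 and 99.57 CPM in CD201+CD48+ cells, and at 123.72, 124.58 and 94.67 CPM in CD201- cells. The third CD201- library was low and overlapped with CD201+CD48+ cells, whereas the other CD201- libraries were above them. Ccnd3 passed in no comparison in the fit of all libraries and filtered genes, but with no filter on low counts it passed in CD201+CD48- against CD201+CD48+ cells (log2 0.27, adjusted p 0.0344). Without the third CD201- library it was lower in CD201+CD48+ cells than in CD201- cells (log2 -0.34, adjusted p 2.72e-04, against -0.22 and 0.116 with it) and higher in CD201+CD48- cells than in CD201+CD48+ cells (log2 0.29, adjusted p 6.94e-04, against 0.29 and 0.0716 with it). The latter comparison holds no CD201- library, so that library entered it only through the joint fit.

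The make-up of the D cyclin transcripts was then compared. Counts were divided by the length of merged exons, and each cyclin's share of the summed level was taken in each library. Ccnd1 made up 8.89%, 10.43% and 8.96% in CD201+CD48- cells, 4.77%, 2.29% and 3.57% in CD201+CD48+ cells, and 1.45%, 1.84% and 1.96% in CD201- cells. No groups overlapped, and the Ccnd1 share was highest in CD201+CD48- cells. The share of Ccnd2 averaged 65.3 ± 0.42%, 71.7 ± 1.67% and 77.2 ± 2.36% in the same order (SD, n = 3 each), again without overlap, so that Ccnd2 was the main D cyclin transcript in each population. Ccnd3 took 25.2 ± 0.61%, 24.7 ± 0.57% and 21.1 ± 2.49%, and its shares overlapped between the CD201+ populations. Each of these 9 comparisons but that last one had the smallest p that 3 against 3 libraries allow in a two-sided exact permutation test, 0.1 (0.112 after adjustment over the 9), so none could pass 0.05.

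**Figure D2:**
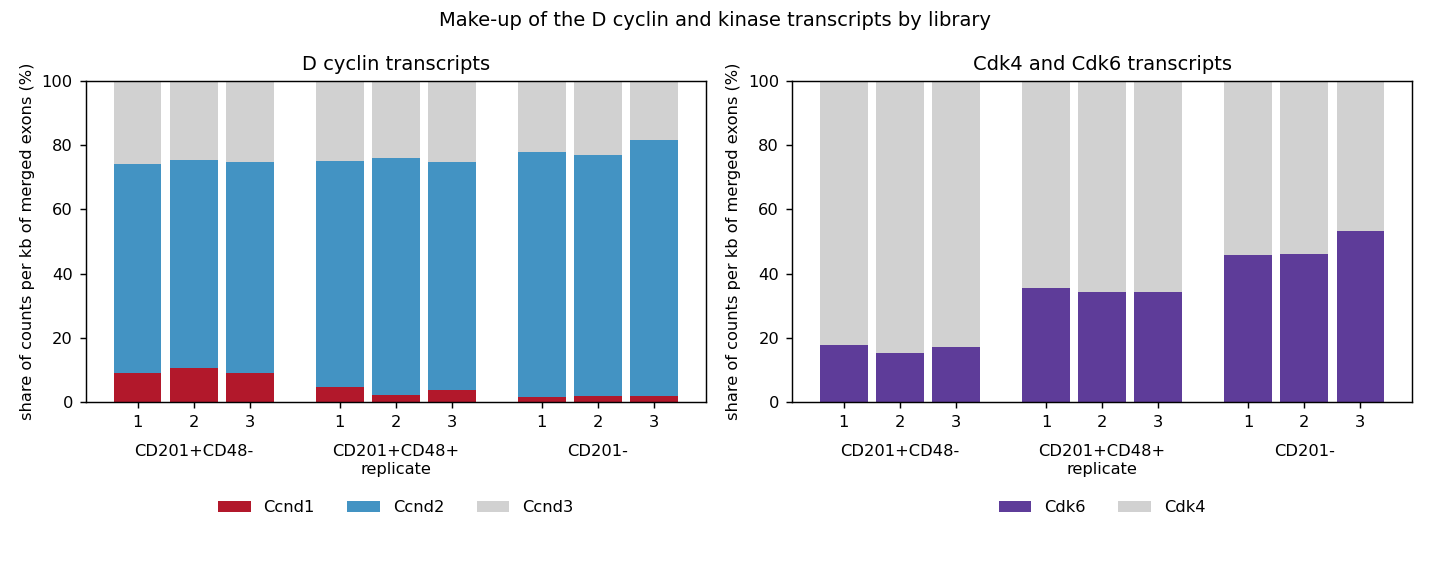
Share of each D cyclin in the summed D cyclin level, and of Cdk6 in the summed Cdk4 and Cdk6 level, in percent of counts per kilobase of merged exons (vertical axes), for each library of CD201+CD48-, CD201+CD48+ and CD201- cells. The Cdk6 share is 15.22 to 17.71% in CD201+CD48- cells, 34.16 to 35.43% in CD201+CD48+ cells and 45.87 to 53.38% in CD201- cells.

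Cdk6 encodes the D cyclin-dependent kinase that is prominent in blood cells. Cdk6 was measured at 208.68, 187.73 and 213.22 CPM in CD201+CD48- cells, at 628.74, 578.48 and 615.58 CPM in CD201+CD48+ cells, and at 1064.59, 1059.89 and 986.63 CPM in CD201- cells. The 3 populations were fully separated, with CD201+CD48+ cells between the others. Cdk6 was 5.10-fold lower in CD201+CD48- cells than in CD201- cells (log2 -2.35 ± 0.09 SE, adjusted p 2.02e-11), and 40 of the 11619 tested genes had a lower log2 fold change. It was 1.71-fold lower in CD201+CD48+ cells than in CD201- cells (log2 -0.77 ± 0.08 SE, adjusted p 5.62e-06), and 2.99-fold lower in CD201+CD48- cells than in CD201+CD48+ cells (log2 -1.58 ± 0.08 SE, adjusted p 3.83e-09), where 30 genes had a lower value. The lncRNAs Gm36470 and Gm29868 overlap its locus on chromosome 5, 3341004 to 3531008, with strand use in counting not given in the sources used here.

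Cdk4 encodes the other D cyclin-dependent kinase and behaved otherwise. Cdk4 was measured at 231.28, 249.38 and 246.43 CPM in CD201+CD48- cells, at 273.36, 264.20 and 283.04 CPM in CD201+CD48+ cells, and at 299.68, 295.20 and 205.57 CPM in CD201- cells. The third CD201- library was the lowest of all 9, and the other CD201- libraries were the highest. With all libraries Cdk4 passed the test in no comparison, with a log2 value of -0.14 (95% interval -0.38 to 0.11) in CD201+CD48- against CD201- cells, 0.02 when scaled by library size alone. In CD201+CD48+ against CD201- cells its value was 0.04 (-0.21 to 0.28), and in CD201+CD48- against CD201+CD48+ cells -0.18 (-0.42 to 0.07). Without the third CD201- library Cdk4 was lower in CD201+CD48- cells than in CD201- cells (log2 -0.30, adjusted p 1.87e-05) and than in CD201+CD48+ cells (-0.18, adjusted p 0.0053), and its value against CD201- cells turned to -0.12 in CD201+CD48+ cells without passing. The third CD201- library entered the comparison of the CD201+ populations only through the joint fit of all libraries. Tspan31, which overlaps the Cdk4 locus (chromosome 10, 127063535 to 127067288), had 60 counts in that library, against 113 and 115 in the other CD201- libraries.

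The kinase transcripts were set against each other in the same way. Per kilobase of merged exons, Cdk6 made up 17.71%, 15.22% and 17.11% of the summed Cdk4 and Cdk6 level in CD201+CD48- cells, 35.43%, 34.31% and 34.16% in CD201+CD48+ cells, and 45.87%, 46.13% and 53.38% in CD201- cells. The groups did not overlap, and the highest value belonged to the third CD201- library, where Cdk4 was low. The mean share differed by -31.8 percentage points in CD201+CD48- against CD201- cells, by -13.8 points in CD201+CD48+ against CD201- cells and by -17.95 points in CD201+CD48- against CD201+CD48+ cells, each at the smallest possible exact permutation p of 0.1. In CD201+CD48- cells the Cdk4 level was above that of Cdk6, at 70.45 ± 2.82 and 14.1 ± 0.94 CPM per kilobase, whereas CD201- cells held 77.6 ± 15.4 and 71.9 ± 3.03 CPM per kilobase, a difference within the SD of Cdk4. By the shares above, Cdk4 lay above Cdk6 in the first and the second CD201- library. It lay below Cdk6 in the third. The size of the share depended on the length used, and its order across the populations did not. With the longest transcript the Cdk6 share averaged 13.0%, 28.4% and 41.3% in CD201+CD48-, CD201+CD48+ and CD201- cells, and as raw counts 45.6%, 68.9% and 79.7%.

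Among the inhibitors, Cdkn1a (chromosome 17, 29090979 to 29100722), a target of p53, had its lowest level in CD201+CD48+ cells. Cdkn1a was measured at 27.72, 25.27 and 21.03 CPM in CD201+CD48- cells, at 14.69, 13.98 and 14.44 CPM in CD201+CD48+ cells, and at 29.66, 24.74 and 35.06 CPM in CD201- cells. Every CD201+CD48+ library lay below every other library, and the CD201+CD48- and CD201- libraries overlapped. Cdkn1a was 2.07-fold lower in CD201+CD48+ cells than in CD201- cells (log2 -1.05 ± 0.15 SE, adjusted p 9.27e-05) and 1.72-fold higher in CD201+CD48- cells than in CD201+CD48+ cells (log2 0.78 ± 0.15 SE, adjusted p 0.00236). In CD201+CD48- against CD201- cells it did not pass (log2 -0.27, 95% interval -0.57 to 0.04, adjusted p 0.138), but did so without the second CD201- library (-0.39, adjusted p 0.0378). With each library left out in turn this value ran from -0.39 to -0.13. It passed in no other case, including that without the third CD201- library.

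A list of 8 megakaryocyte and platelet markers was also lowest in CD201+CD48+ cells. Its summed level was 1511 to 1649 CPM in CD201+CD48- cells, 292.5 to 304.5 CPM in CD201+CD48+ cells, with 540 to 622 CPM in CD201- cells. Of the 7 markers tested, 7 were higher in CD201+CD48- cells than in CD201+CD48+ cells, where 9.05% of all tested genes were called higher. In CD201+CD48+ against CD201- cells 1 was higher and 3 were lower, beside 14.8% and 14.3% of all genes. In CD201+CD48- against CD201- cells 6 were higher and 1 was lower, beside 24.2% and 23.9%. The part of megakaryocyte and platelet lineage cells in the Cdkn1a result was not tested.

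Cdkn1b (chromosome 6, 134920401 to 134925525) was the steadiest of the members by the range of its group means. Cdkn1b was measured at 85.10, 80.09 and 72.62 CPM in CD201+CD48- cells, at 73.81, 87.12 and 83.76 CPM in CD201+CD48+ cells, and at 77.91, 75.52 and 87.88 CPM in CD201- cells. All groups overlapped. The 95% intervals of its log2 differences ran from -0.22 to 0.18 in CD201+CD48- against CD201- cells (estimate -0.02, and 0.15 when scaled by library size alone), from -0.18 to 0.22 in CD201+CD48+ against CD201- cells, and from -0.24 to 0.16 between the CD201+ populations.

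Cdkn2c (chromosome 4, 109660876 to 109666756), whose loss in mice enlarges the stem cell pool, had the fewest counts. Cdkn2c was measured at 3.00, 3.79 and 4.43 CPM in CD201+CD48- cells (17, 15 and 20 counts), at 6.32, 5.67 and 5.09 CPM in CD201+CD48+ cells, and at 6.86, 6.45 and 6.79 CPM in CD201- cells. The 3 populations did not overlap, with CD201+CD48- cells the lowest. Cdkn2c was lower in CD201+CD48- cells than in CD201- cells (log2 -0.86 ± 0.24 SE, adjusted p 0.00912), but not without the first CD201+CD48- library (-0.70, adjusted p 0.0519). The differences of -0.24 in CD201+CD48+ against CD201- cells and of -0.61 in CD201+CD48- against CD201+CD48+ cells did not pass (adjusted p 0.436 and 0.104), and their 95% intervals ran from -0.70 to 0.22 and from -1.13 to -0.10.

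Of the pocket proteins, Rbl1 (p107; chromosome 2, 157145893 to 157204534), itself a known E2F target, differed between the populations. Rbl1 was measured at 171.08, 165.49 and 175.80 CPM in CD201+CD48- cells, at 218.18, 221.68 and 227.89 CPM in CD201+CD48+ cells, and at 216.02, 219.90 and 235.59 CPM in CD201- cells. The CD201+CD48- libraries lay below all others, which overlapped among themselves. Rbl1 was lower in CD201+CD48- cells than in CD201- cells (log2 -0.39 ± 0.07 SE, adjusted p 3.15e-04) and than in CD201+CD48+ cells (log2 -0.38 ± 0.07 SE, adjusted p 0.00165). In CD201+CD48+ against CD201- cells the log2 value was -0.01 (95% interval -0.16 to 0.14), and 0.13 when scaled by library size alone. The E2F letters printed above lie in its promoter window.

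Rb1 (chromosome 14, 73192858 to 73325951), the retinoblastoma protein that binds the activating E2F factors, passed the test in no comparison. Rb1 was measured at 49.43, 43.20 and 42.95 CPM in CD201+CD48- cells, at 35.20, 42.14 and 40.98 CPM in CD201+CD48+ cells, and at 41.17, 42.17 and 47.34 CPM in CD201- cells. Its replicates were separated only between the CD201+ populations, by less than 1 CPM between the nearest libraries. The log2 values were 0.06 (95% interval -0.17 to 0.29) in CD201+CD48- against CD201- cells, -0.14 (-0.37 to 0.08) in CD201+CD48+ against CD201- cells and 0.20 (-0.02 to 0.43) between the CD201+ populations.

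**Figure D3:**
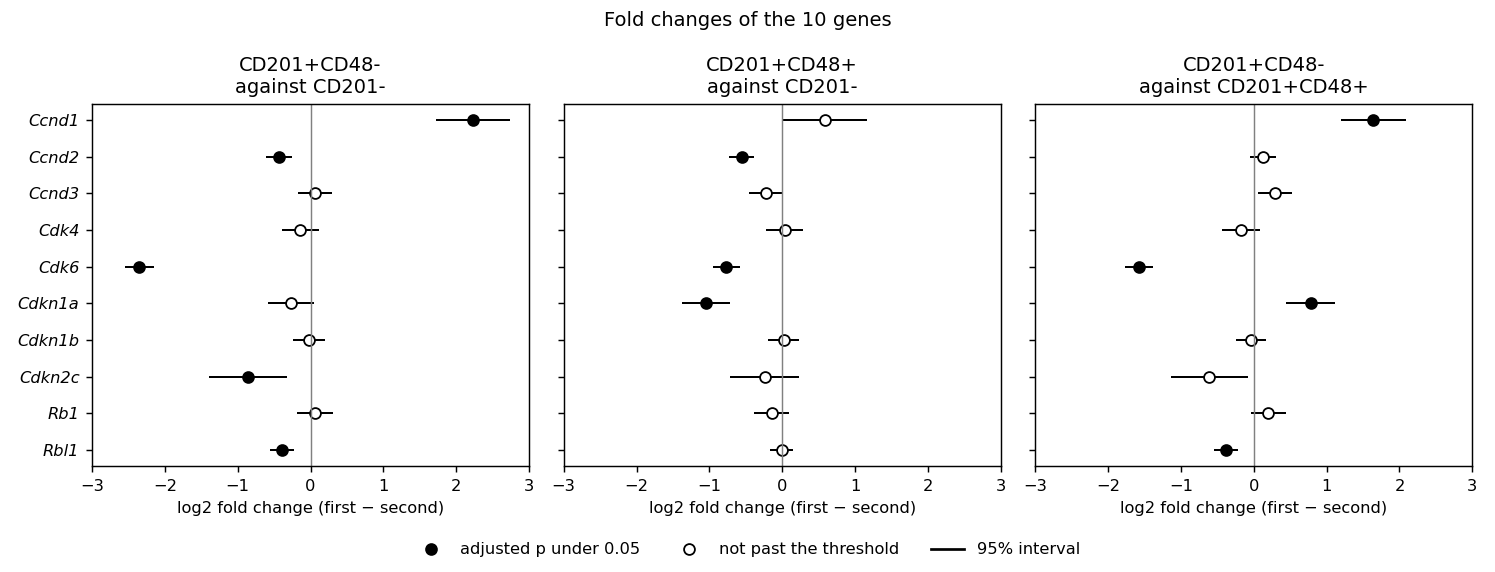
Log2 fold change of the 10 members with 95% intervals (horizontal axis) in CD201+CD48- against CD201-, CD201+CD48+ against CD201-, and CD201+CD48- against CD201+CD48+ cells, from the edgeR fit; positive values are higher in the population named first. Cdk6 lies left of 0 in all 3 comparisons (-2.35, -0.77 and -1.58) and Ccnd1 right of 0 (2.23, 0.59 and 1.64, of which 0.59 did not pass the test).

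Set side by side per kilobase of merged exons, the members differed in order between the populations, and the largest shifts in place were those of Cdk6 and Ccnd1. In CD201+CD48- cells Cdk4 (70.45 CPM per kilobase) led, followed by Ccnd2 (33.4), Rbl1 (23.3), Cdkn1b (17.4 ± 1.38), Cdk6 (14.1 ± 0.94) and Ccnd3 (12.9 ± 1.17), and then by Ccnd1 (4.81 ± 0.42), Cdkn1a (4.08 ± 0.56), Rb1 (3.75 ± 0.30) and Cdkn2c (0.59). In CD201+CD48+ cells the order was Cdk4 (79.5), Cdk6 (42.1), Ccnd2 (30.6 ± 0.39), Rbl1 (30.3 ± 0.67), Cdkn1b (17.9), Ccnd3 (10.6), Rb1 (3.27), Cdkn1a (2.38), Ccnd1 (1.53 ± 0.58) and Cdkn2c (0.90 ± 0.10). In CD201- cells it was Cdk4 (77.6 ± 15.4), Cdk6 (71.9 ± 3.03), Ccnd2 (45.1), Rbl1 (30.5), Cdkn1b (17.7), Ccnd3 (12.4), Cdkn1a (4.93), Rb1 (3.61), Cdkn2c (1.05 ± 0.03) and Ccnd1 (1.02 ± 0.12). Neighbours whose means differed by less than the SD of either gene were Cdkn1a and Rb1 in CD201+CD48- cells, Ccnd2 and Rbl1 in CD201+CD48+ cells, and Cdk4 and Cdk6 as well as Cdkn2c and Ccnd1 in CD201- cells. Cdk4 was above Cdk6 in each CD201- library other than the third. The order of neighbours depended on the length used. With the longest transcript, Ccnd3 had 30.9 and Cdk6 17.4 CPM per kilobase in CD201+CD48- cells, and Cdk4 had 128.2 and Cdk6 89.0 CPM per kilobase in CD201- cells.

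Of 36 other genes of the pathway, 34 were tested; Cdkn2a and Cdkn2b had too few counts. In CD201+CD48- against CD201- cells 2 were higher and 17 lower (median log2 -0.26), in CD201+CD48+ against CD201- cells 1 was higher and 12 lower (-0.14), and in CD201+CD48- against CD201+CD48+ cells 1 was higher and 9 lower (-0.13). Over all genes tested the shares called lower were 23.9%, 14.3% and 6.31% in the 3 comparisons, and the shares called higher 24.2%, 14.8% and 9.05%. With library size alone the counts were 4 and 11, 1 and 5, and 1 and 7, and the medians -0.09, -0.00 and -0.09. In the last comparison 1 and 13 were called without the third CD201- library, and 4 to 6 in all when any library of the CD201+ populations was left out. In CD201+CD48+ against CD201- cells 1 and 7 were called without the third CD201+CD48+ library.

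The inhibitor Cdkn1c was higher, and the cyclin E genes were lower, in CD201+CD48- cells than in either other population. Cdkn1c (p57), which keeps mouse HSCs quiescent, had 18.5 ± 2.24 CPM in the CD201+CD48- population, 9.31 ± 0.94 CPM in the CD201+CD48+ and 9.77 ± 1.24 CPM in the CD201- (mean and SD, n = 3 each). It was higher in CD201+CD48- cells than in CD201- cells (log2 0.91 ± 0.17 SE, adjusted p 3.36e-04) and than in CD201+CD48+ cells (0.99 ± 0.16 SE, adjusted p 6.0e-04). The Ink4 inhibitor Cdkn2d was lower in CD201+CD48+ cells than in CD201- cells (log2 -0.59 ± 0.15 SE, adjusted p 0.00812). Ccne1 and Ccne2, the E cyclins that partner Cdk2, were lower in all 3 comparisons. Ccne1 averaged 10.0 ± 2.02, 16.2 ± 1.63 and 24.1 ± 2.47 CPM in CD201+CD48-, CD201+CD48+ and CD201- cells, with log2 values of -1.24 (adjusted p 1.92e-05), -0.57 (0.00939) and -0.67 (0.013) in the 3 comparisons. Ccne2 had values of -1.22 (5.65e-06), -0.45 (0.0165) and -0.77 (0.00193). Cdc25a, the phosphatase that activates Cdk2, was lower by less, with -0.63, -0.31 and -0.32. Ccnh, of the kinase that activates the cyclin-dependent kinases, had -0.37 and -0.27 against CD201- cells. These are 4 of 7 genes of the Cdk2 arm called lower in the first comparison, 4 in the second and 3 in the third. Some calls rested on single libraries. In the second comparison Ccne2 and Cdc25a missed the threshold without the first CD201+CD48+ library (adjusted p 0.0688 and 0.0777) or the third (0.0647 and 0.0602), and Ccnh missed it when any 1 library was left out other than the first and the second CD201- library (0.0653 to 0.191). In the third Ccne1 missed it without the third CD201+CD48- or the first CD201+CD48+ library (0.0767 and 0.0581), and Cdc25a without the first or the third CD201+CD48- or the second or the third CD201+CD48+ library (0.0973 to 0.143).

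Of 11 E2F, DP and p130 genes, 6 were lower and 1 was higher in CD201+CD48- against CD201- cells, 5 and 1 in CD201+CD48+ against CD201- cells, and 1 was lower between the CD201+ populations. E2f4, a repressive E2F, had 128.2 ± 2.98 CPM in the CD201+CD48- population, 129.9 ± 7.38 CPM in the CD201+CD48+ and 194.5 ± 5.40 CPM in the CD201- (log2 -0.60 and -0.58, adjusted p 6.24e-06 and 2.12e-05). The atypical repressors E2f7 and E2f8 had log2 values of -0.65 and -0.76 in the first comparison and -0.38 and -0.52 in the second. Tfdp1, the dimer partner of the E2F factors, was lower in all 3 (-0.66, -0.27 and -0.39), although its second call was lost without the second CD201+CD48+ library (adjusted p 0.0511). The genes that rose, E2f5 in the first comparison (0.59, adjusted p 0.0117, but 0.43 and 0.0685 without the second CD201+CD48- library) and Tfdp2 in the second (0.29, adjusted p 0.0086), were picked out after their values were seen.

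Another list held 7 genes, those of the MuvB complex and B-Myb and the kinase gene Dyrk1a. Of these, 4 were lower in CD201+CD48- against CD201- cells, 2 in CD201+CD48+ against CD201- cells and 4 between the CD201+ populations. Mybl2, which encodes B-Myb, averaged 38.4 ± 2.99, 53.4 ± 5.52 and 100.3 ± 7.22 CPM in CD201+CD48-, CD201+CD48+ and CD201- cells, with log2 values of -1.39 (adjusted p 3.62e-08), -0.91 (5.77e-06) and -0.48 (0.00551). Rbbp4 was lower by 0.46 to 0.21 in all 3 comparisons, and Lin54 and Lin9 were lower in CD201+CD48- cells than in either other population (log2 -0.56 and -0.30 for Lin54, -0.39 and -0.36 for Lin9). Of 7 ubiquitin ligase genes for p27 and the G1 cyclins, Skp2, Cks1b and Cul1 were lower in CD201+CD48- against CD201- cells (-0.36, -0.66 and -0.21), none passed in CD201+CD48+ against CD201- cells, and Skp2 was lower between the CD201+ populations (-0.32). The calls of Rbbp4, Lin54, Lin9 and Skp2 between the CD201+ populations were near the threshold and were each lost when any CD201+CD48- library was left out, with adjusted p of 0.0543 to 0.161. They were also lost without any CD201+CD48+ library for Lin54, without the second or the third for Rbbp4, the first or the second for Lin9 and the first or the third for Skp2 (0.0598 to 0.192). The call of Rbbp4 in the second comparison was lost when any 1 library was left out other than the second and the third CD201- library (0.0503 to 0.132). That of Cul1 in the first was lost without the second or the third library of either CD201+ population, or without the second CD201- library (0.0524 to 0.191).

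**Figure D4:**
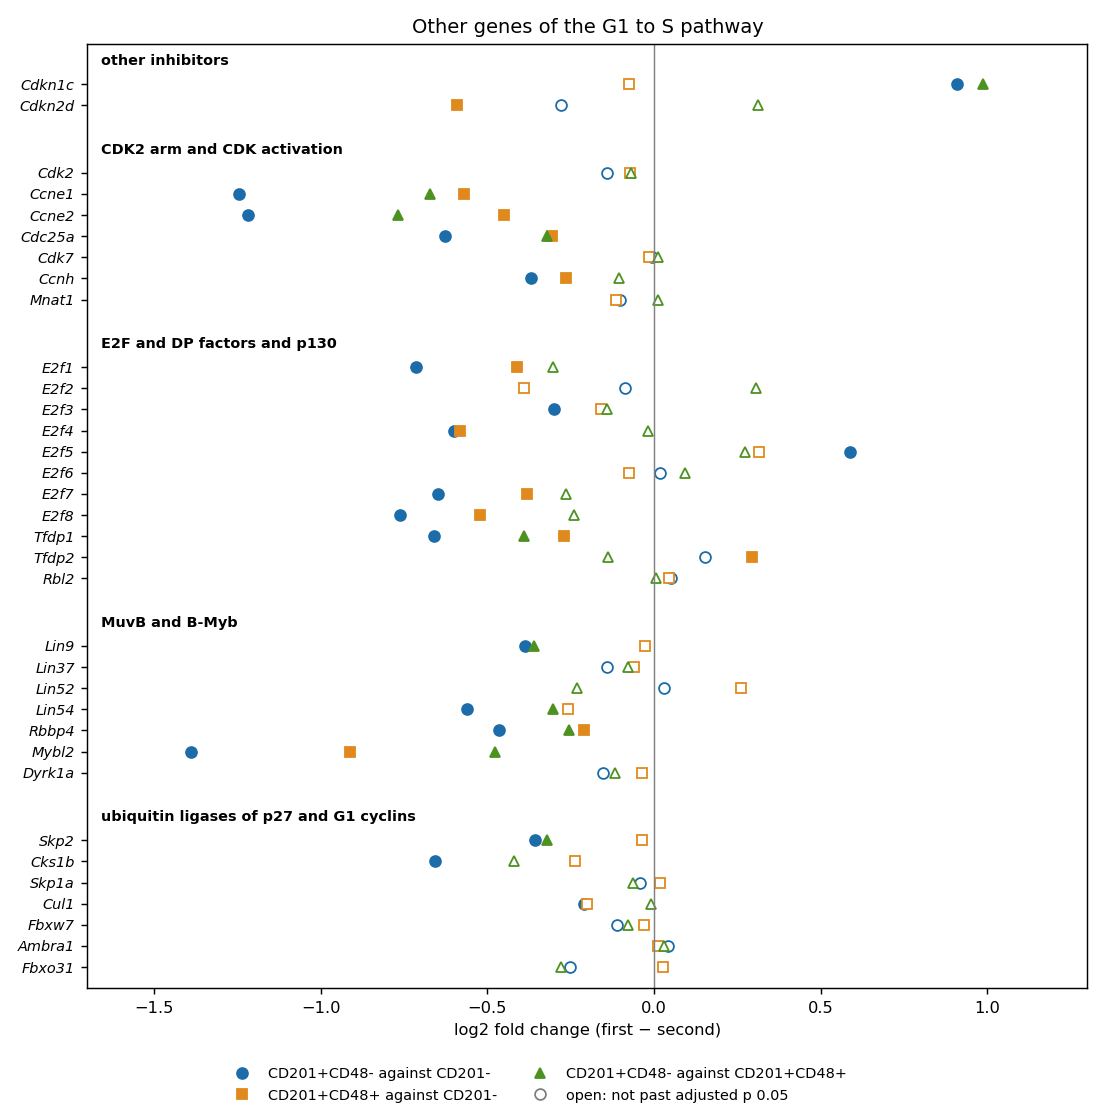
Log2 fold changes of the 34 tested pathway genes (horizontal axis, higher in the population named first to the right) in the 3 comparisons, grouped by role, with filled marks for those that passed an adjusted p of 0.05 in the edgeR fit. Cdkn1c lies right of 0 in CD201+CD48- against either other population (0.91 and 0.99), while Ccne1, Ccne2 and Mybl2 lie left of 0 in every comparison.

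The summed levels of genes of S phase and of G2 and M phase followed the same order of populations as Cdk6. The summed level of 22 S phase genes was 3074 to 3162 CPM in CD201+CD48- cells, 4182 to 4275 CPM in CD201+CD48+ cells, with 5224 to 5902 CPM in CD201- cells. All 22 were lower in CD201+CD48- against CD201- cells (median log2 -0.80), 17 in CD201+CD48+ against CD201- cells (-0.33, and 10 with library size alone) and 21 between the CD201+ populations (-0.47). The 20 G2 and M genes summed to 5503 to 5714, 7626 to 7987 and 8269 to 10465 CPM in the same order of populations. Their list had 18 lower members in the first comparison (-0.63), 4 lower and 1 higher in the second (-0.18, and 1 lower and 3 higher with library size alone), and 18 lower in the third (-0.45). The second count of G2 and M genes ran from 1 lower without the second CD201+CD48+ library to 8 lower and 2 higher without the third CD201- library. Among all tested genes 23.9%, 14.3% and 6.31% were called lower in the 3 comparisons, and 24.2%, 14.8% and 9.05% higher. The G2 and M count in the second comparison was thus close to the background. The part of the share of cycling cells in the members' values was not tested.

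Marker lists of the cell types that such a culture can hold were read in the same libraries. The summed level of 10 HSC markers was 2038 to 2069 CPM in CD201+CD48- cells, 1440 to 1487 CPM in CD201+CD48+ cells, with 983 to 1021 CPM in CD201- cells, where Hoxb5 was at 0 counts. Of 9 tested, 7 were called higher and 1, Meis1, lower in CD201+CD48- against CD201- cells. In the second comparison 5 were called higher, in the third 6, and none lower in either. This list holds Procr and Slamf1, the genes of CD201 and CD150 in the sort gates. Procr was among those called higher in each comparison and Slamf1 in the first. The sort on CD201 itself bears on the calls of Procr against CD201- cells. Granulocyte and monocyte progenitor markers summed to 80.3 to 87.0, 104.9 to 115.8 and 111.1 to 126.2 CPM. Elane and Mpo were at 0 counts in CD201+CD48- cells, Elane and Ly6c2 in CD201+CD48+ cells, and Ly6c2 and Cebpe in CD201- cells. Mast cell and basophil markers were highest in CD201- cells at 297 to 318 CPM, and lymphoid markers summed to at most 0.96 CPM in any library. Of the 8 mast cell and basophil markers only Cpa3, Gzmb and Gata2 had enough counts to be tested. Mcpt8, Ms4a2, Fcer1a, Cma1 and Prss34 did not, and Cma1 was at 0 counts in all populations. Erythroid markers summed to 334 to 386 CPM in all populations with Hba-a1 at 0, but single markers moved in opposite directions. Of 5 tested, 2 were called higher and 2 lower in CD201+CD48- against CD201- cells. The counts were 1 and 3 in CD201+CD48+ against CD201- cells, and 1 and 2 in CD201+CD48- against CD201+CD48+ cells. The shares of all tested genes called in each comparison are given above. The part of these cell types in the members' values was not tested.

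For the 3 members with the widest range, the genes with the most similar pattern were sought among 8824 genes, by the root mean square difference of centred log2 CPM over the 9 libraries. For Cdk6 the closest was Zfp462, with a difference of 0.10 and means of 4.84, 15.9 and 27.3 CPM in CD201+CD48-, CD201+CD48+ and CD201- cells, followed by Clec4e and Nlrc3 (0.21 and 0.23). For Ccnd1 these were Kalrn, Lmna and Ptpn14, at 0.24, 0.30 and 0.33. For Cdkn1a they were Slc2a3, Pdlim5 and Myo1e, at 0.17, 0.18 and 0.20. The likeness is a description of these 9 libraries, which share 3 groups, and carries no test.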

How the data were processed

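The labels' protocols give sorts of over 5000 cells, extraction with Trizol LS, SMARTer cDNA and NextSeq paired-end sequencing with a read length of 36 nt. The deposited table holds raw counts per gene symbol, which the authors did not normalize. The submitters' processing notes name the build mm10 and DESeq2, with the aligner, counting tool and strand setting not given in the sources used here. The table's 3 columns of values that matched no sample label were not used.

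Counts were tested with the quasi-likelihood test of edgeR 4.0.16 in R 4.3.3, on all 9 libraries with group as the only factor, TMM factors, filterByExpr (minimum count 10) and Benjamini-Hochberg adjustment over all 11619 genes tested (threshold 0.05; common biological coefficient of variation 8.64%). CPM use TMM-scaled library sizes, with a prior count of 2 for log2 CPM. Alternatives used DESeq2 1.42.0, limma 3.58.1, other scalings, no filter, a replicate block, the compared groups alone and each library left out. Levels per kilobase used merged exons of the GENCODE M39 genes. Shares were compared by two-sided exact permutation tests. Figures were drawn with matplotlib 3.10.9. The fit was tested on simulated counts.

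All members are named. Of each other pathway list up to 4 called genes with the smallest p over the comparisons are named, and for likeness the 3 closest genes with a mean of at least 10 CPM. The members and lists were chosen with earlier results of these data known.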

Additional observations from a re-analysis of the deposited data

How the results depend on the processing

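Fold changes and counts of calls were recomputed under 16 alternatives, and each share under 8. Of the 160 alternative values of the members in each comparison, 150, 149 and 153 kept their direction and their side of the threshold in CD201+CD48- against CD201-, CD201+CD48+ against CD201-, and CD201+CD48- against CD201+CD48+ cells. The calls of Ccnd1, Ccnd2, Cdk6 and Rbl1 in the first comparison, of Ccnd2, Cdk6 and Cdkn1a in the second and of Ccnd1, Cdk6, Cdkn1a and Rbl1 in the third held in all 16, and all 96 alternative values of the shares kept their direction. With library size alone the log2 value of Cdk4 turned to 0.020 and that of Cdkn1b to 0.15 in the first comparison, and that of Rbl1 to 0.13 in the second; with only the compared groups in the fit, Rbl1 had 0.0035 in the second. With each library left out in turn, the log2 values ran from -0.053 to 0.13 for Ccnd3, -0.077 to 0.049 for Cdkn1b and -0.017 to 0.12 for Rb1 in the first comparison, from -0.12 to 0.13 for Cdk4, -0.024 to 0.091 for Cdkn1b and -0.035 to 0.033 for Rbl1 in the second, and from -0.11 to 0.019 for Cdkn1b in the third. None of these had passed the test, and the cause was not tested. The genes called in the third comparison numbered 3339 with only its groups in the fit, against 1785, and 1023 to 3534 with each library left out; with its groups alone, Cdk4 and Ccnd3 also passed (adjusted p 0.0118 and 0.00125), and with no filter on low counts Ccnd3 did (0.0344).

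The labels do not say whether a shared replicate number pairs libraries. The deviations of libraries with the same number correlated at -0.11 to 0.04, none over 0.1. With 3 libraries a group these values cannot exclude a pairing. With the replicate as a block 5322 genes were called in CD201+CD48- against CD201-, 3038 in CD201+CD48+ against CD201- and 1441 in CD201+CD48- against CD201+CD48+ cells, no member's call changed, and 5 pathway genes were called in the third comparison in place of 10. The calls of Ccnh in the second comparison, lost in 13 of 16 alternatives, and of Cul1 in the first, lost in 9, rest on their setting, as do those of Rbbp4 in the second and Lin54 in the third, each lost in 11. Low counts limit what Cdkn2c (15 to 37 a library) and Ccnd1 (19 to 133) can show.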

Other observations

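The third CD201- library, picked out after its values were seen, differed from the other CD201- libraries in both directions among cell cycle genes. On the log2 CPM scale 17 of 22 S phase genes lay above the mean of the other CD201- libraries and 5 below it (median 0.13), and 10 of 20 G2 and M phase genes lay above it (median 0.03), from -0.50 for Cdk1 to 0.64 for Tpx2. Among the genes of G1, Cks1b (-0.76), Cdk4 (-0.53), E2f1 (-0.48) and Ccnd3 (-0.39) were below that mean, while Cdkn1a (0.37), Mnat1 (0.35) and Ccne2 (0.33) were above it. Cdk6 and Ccnd2 differed by -0.11 and -0.02.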
